A study of Arabidopsis thaliana with 9 samples.

Results

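The xyloglucan endotransglucosylase/hydrolase (XTH) family of Arabidopsis thaliana was followed across 9 RNA-seq libraries of root tips, cut at 2 to 3 mm from the apex from seedlings grown for 5 days after germination. Its members were taken by locus, XTH1 to XTH33, which gave 33 of the 33602 loci in the count files. Of these, 29 had at least 20 counts over the 9 libraries, and the same 29 passed the filter on low counts. Counts for XTH1, XTH3 and XTH6 came to 1 each, and XTH25 had 0 in every library.

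There were 9 groups with 1 library each, and all plants were in the Col-0 (CS70000) background. The stop1 mutant was sampled on low phosphate with malate (5 µM phosphate, 1 mM L-malate), on low phosphate (5 µM) and on high phosphate (1 mM). The almt1 mutant was sampled in the same 3 conditions. Wild type (WT) was sampled on low phosphate and low iron (5 µM phosphate, no added iron and 100 µM ferrozine, an iron chelator), on low phosphate and on high phosphate. The alleles of both mutants are not given in the sources used here. For stop1 with malate the sample title names the +Pi medium, but the phosphate treatment recorded for it is low, and the recorded treatment was used.

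XTH enzymes act on xyloglucan, the hemicellulose that coats and tethers cellulose microfibrils in the primary walls of dicots. Most of them cut a xyloglucan chain and rejoin the new end to another chain, which changes the wall without shortening its tethers, while a few act mainly as hydrolases. In roots the activity is known from the elongation zone and from root hairs. STOP1 is a zinc-finger transcription factor that is needed for expression of ALMT1, a malate-permeable channel of root cells. Both act in the iron-dependent slowing of root growth on low phosphate, and the series set each mutant beside WT and added malate or removed iron to ask about this.

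XTH17, XTH18, XTH19 and XTH20 form a clade of closely related genes whose mRNAs behaved differently across these libraries, so their sequences are shown first. The coding sequence of XTH17 matched that of XTH18 at 92.2% of 849 aligned bases, that of XTH19 at 88.6% and that of XTH20 at 85.7%. The pattern searched for the family's catalytic motif was found in all members but XTH9 and XTH11. Stretches of 60 bases around its codons are given for the coding strand (TAIR10.1, from the RefSeq assembly). Capitals mark each base that differs from XTH17.
XTH17, AT1G65310, chr1:24257662-24257721, plus strand: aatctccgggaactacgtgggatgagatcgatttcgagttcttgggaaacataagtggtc
XTH18, AT4G30280, chr4:14826556-14826615, minus strand: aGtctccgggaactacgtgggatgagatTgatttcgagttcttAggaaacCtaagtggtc
XTH19, AT4G30290, chr4:14829548-14829607, minus strand: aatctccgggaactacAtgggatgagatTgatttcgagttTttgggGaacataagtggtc
XTH20, AT5G48070, chr5:19482545-19482604, plus strand: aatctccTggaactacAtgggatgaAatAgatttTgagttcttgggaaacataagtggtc
XTH18 and XTH19 differed from XTH17 at 4 bases of this exonic stretch and XTH20 at 5. XTH18 and XTH19 lie beside each other on chromosome 4, while XTH17 and XTH20 lie on chromosomes 1 and 5.

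The 250 bases before the annotated starts of XTH17 and XTH18 are shown because the pair shared its promoter-proximal sequence and its values on low phosphate are set beside each other later. Capitals mark runs of at least 8 identical aligned bases. XTH17 has more than 1 annotated transcript, and the most upstream start was used.
XTH17, chr1:24256804-24257053, plus strand: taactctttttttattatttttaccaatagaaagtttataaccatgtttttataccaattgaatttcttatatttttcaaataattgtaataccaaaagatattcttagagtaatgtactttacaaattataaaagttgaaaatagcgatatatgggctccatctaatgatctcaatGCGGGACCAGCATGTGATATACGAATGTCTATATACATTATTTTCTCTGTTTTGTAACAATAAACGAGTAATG
XTH18, chr4:14827212-14827461, minus strand: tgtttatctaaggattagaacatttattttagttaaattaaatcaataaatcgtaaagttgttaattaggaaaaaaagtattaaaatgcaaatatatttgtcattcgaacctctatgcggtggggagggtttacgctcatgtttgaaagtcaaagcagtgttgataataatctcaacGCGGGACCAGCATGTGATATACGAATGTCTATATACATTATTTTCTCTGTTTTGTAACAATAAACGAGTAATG
The last 73 bases were identical in both promoters, and no other run of at least 8 matches was aligned in the window. Over all aligned bases the promoters of XTH17 and XTH18 matched at 73.7%, against 55.3% to 66.0% for the other 5 pairs within the clade.

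Gene counts were 20619740 in the WT low-phosphate library and up to 37189056 in the others, so a count of 0 allowed at most 3 counts, or 0.0767 to 0.147 CPM (gene counts relative to library size, adjusted with TMM factors). These floors and all intervals cover counting error only. In the WT low-phosphate library 44.9% of alignments were set aside as multiple, against 4.19% to 14.3% in the other 8. ALMT1 mRNA stood at 0, 0.0699, 0.0395 CPM in stop1 (malate, low and high phosphate), at 15.2, 97.5, 41.6 CPM in almt1 in that order, and at 46.9, 135, 57.0 CPM in WT (low iron, low and high phosphate). It was thus near 0 in all 3 stop1 libraries but was still counted in almt1, and STOP1 mRNA was counted at 103 to 174 CPM in the 9 libraries, so neither transcript checks the label of its own mutant. All 9 markers of dividing meristem cells, such as CYCB1;1 and PLT1, were above 0 in every library, with a summed level of 180.0 to 246 CPM. Root cap markers summed to 48.8 to 70.3 CPM. Shoot photosynthesis markers summed to 13.7 to 88.9 CPM, and 3 of 5 were lower in WT on low than on high phosphate.

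With 1 library per group, the spread behind the tests over 9 libraries came from stop1 and almt1 standing in for replicates of each other. These tests had 2 or 3 residual degrees of freedom. In them the lone WT libraries were assumed to vary as the mutants do. In the test of low phosphate over 3 genotypes, the spread came from how the response differed between WT, stop1 and almt1 (2 residual degrees of freedom). Adjusted p-values are from edgeR's quasi-likelihood test with Benjamini-Hochberg adjustment over all genes tested, at a threshold of 0.05, and they measure only the spread between these samples. Ratios of 2 single libraries have no replicate check. They are given as log2 ratios with an exact conditional binomial 95% interval and are called apart at 2-fold or more where that interval excludes equality.

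Per kilobase of exon, XTH14 had the highest level of the family, with a median of 334 CPM per kb over the 9 libraries and a range of 191 to 482. XTH14 is known to prefer xyloglucan without fucose. Its lowest level lay within the range of XTH17. XTH17 followed at a median of 187 and XTH18 at 168 CPM per kb, but the range of XTH17 (17.3 to 221) enclosed that of XTH18 (75.8 to 201), so their order was not fixed across the libraries. XTH15 (120.4), XTH19 (113), XTH12 (110.4) and XTH8 (98.3 CPM per kb) came next and overlapped each other in range. At the other end XTH32, XTH7 and XTH29 had medians of 1.31, 1.26 and 0.211 CPM per kb. XTH2 was counted in only 6 of the 9 libraries, at 28 counts or fewer.

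**Figure D1:**
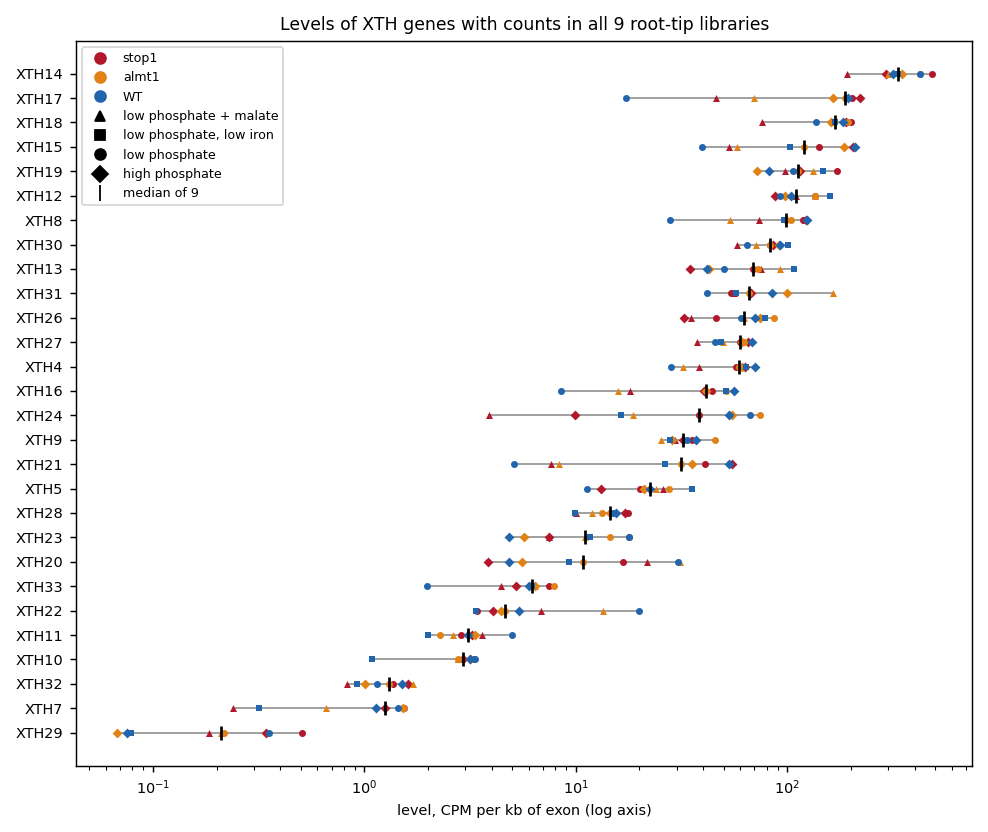
Level of each XTH gene in CPM per kb of exon (log axis), 1 point per library, with a tick at the median of the 9 libraries; the 28 members with counts in all 9 libraries are shown. XTH14 leads, and the WT low-phosphate point lies at the low end for XTH17, XTH15, XTH8, XTH16, XTH21 and XTH4.

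Between libraries, 24 of the 29 members varied by more than 2-fold in CPM and 5 did not. The summed CPM of the whole family was 1403, 2618, 2269 in stop1 (malate, low and high phosphate), 1999, 2528, 2269.6 in almt1 and 2363, 1718, 2429 in WT (low iron, low and high phosphate). The lowest sums were therefore those of stop1 with malate and of WT on low phosphate. In whole root tips, fewer cells of a type and less mRNA per cell cannot be told apart.

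**Figure D2:**
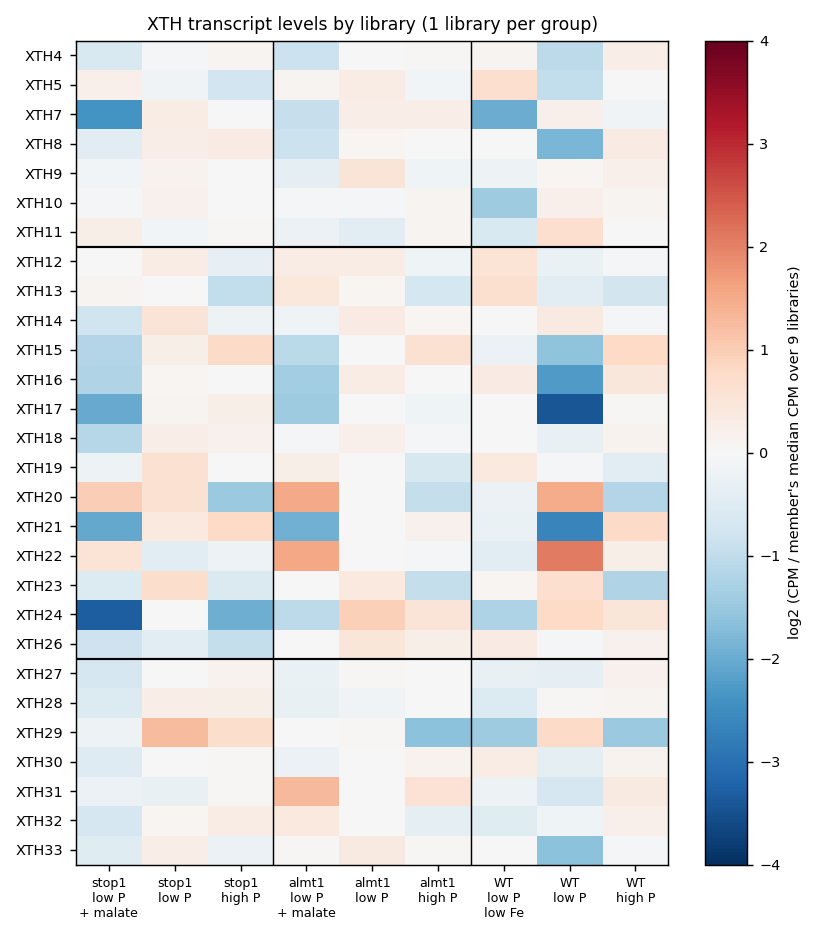
Colour gives the log2 ratio of a member's CPM to its own median over the 9 libraries, for the 28 members with counts in all of them; columns are libraries and horizontal lines divide XTH1 to XTH11, XTH12 to XTH26 and XTH27 to XTH33. XTH17, XTH21, XTH16 and XTH15 are low in WT on low phosphate and in both malate libraries, and XTH20 and XTH22 are high in WT on low phosphate and in almt1 with malate.

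On low against high phosphate in WT, 8 members fell and 3 rose, and the falls included several of the most highly expressed members. XTH17, a root gene, fell the most among members with counts in both libraries, to 21.6 CPM on low phosphate against 241 CPM on high phosphate. XTH21, which has been linked to root growth, fell to 6.08 CPM against 63.4 CPM. The members that rose were XTH20, XTH22 and XTH23, all from the XTH12 to XTH26 range. Of all 21229 genes tested, 12% rose and 9.79% fell. The share of members that rose was close to that background, at 3 of 29, and 8 of 29 fell. The median log2 difference was -0.21 over the members, the same with XTH2 at the bound its floor allows, and 0.07 over all genes.

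XTH17 was at 57.3, 251 and 274 CPM in stop1 (malate, low and high phosphate), 86.2, 233 and 205 CPM in almt1 in the same order, and 237, 21.6 and 241 CPM in WT (low iron, low and high phosphate). The WT low-phosphate library was the lowest of the 9, and the difference from high phosphate was -3.48 (SE 0.38, adjusted p = 0.00822) on the log2 scale, an 11.2-fold lower level. Its near-copy XTH18 was at 95.7, 254 and 241 CPM in stop1 (malate, low and high phosphate), 207, 245 and 204 CPM in almt1 in the same order, and 213, 173 and 232 CPM in WT (low iron, low and high phosphate). XTH18 did not pass the test between low and high phosphate in WT, with a log2 difference of -0.42 (SE 0.48, adjusted p = 0.560). XTH19, known in Arabidopsis throughout the root and mainly where cells divide and elongate, was at 131, 229 and 153 CPM in stop1 (malate, low and high phosphate), 177, 151 and 95.7 CPM in almt1 in the same order, and 197, 142 and 109 CPM in WT (low iron, low and high phosphate). It differed by 0.37 (SE 0.42, adjusted p = 0.552) on the log2 scale between low and high phosphate in WT and did not pass either.

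XTH20, known from the stele of mature root parts, went the other way from XTH17. It was at 30.5, 23.5 and 5.42 CPM in stop1 (malate, low and high phosphate), 43.7, 15.3 and 7.81 CPM in almt1 in the same order, and 13.1, 42.6 and 6.76 CPM in WT (low iron, low and high phosphate), and on low phosphate in WT it rose by 2.65 (SE 0.47, adjusted p = 0.0238) on the log2 scale. Low phosphate was above high phosphate for XTH20 in stop1 and almt1 as well. The clade thus held 1 member that fell, 1 that rose and 2 that did not pass. For XTH17 and XTH18, whose last 73 bases before the start are identical, the log2 ratios of low to high phosphate in WT were -3.48 (95% interval -3.62 to -3.34) and -0.42 (95% interval -0.48 to -0.36), and a difference between the 2 genes was not tested.

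**Figure D3:**
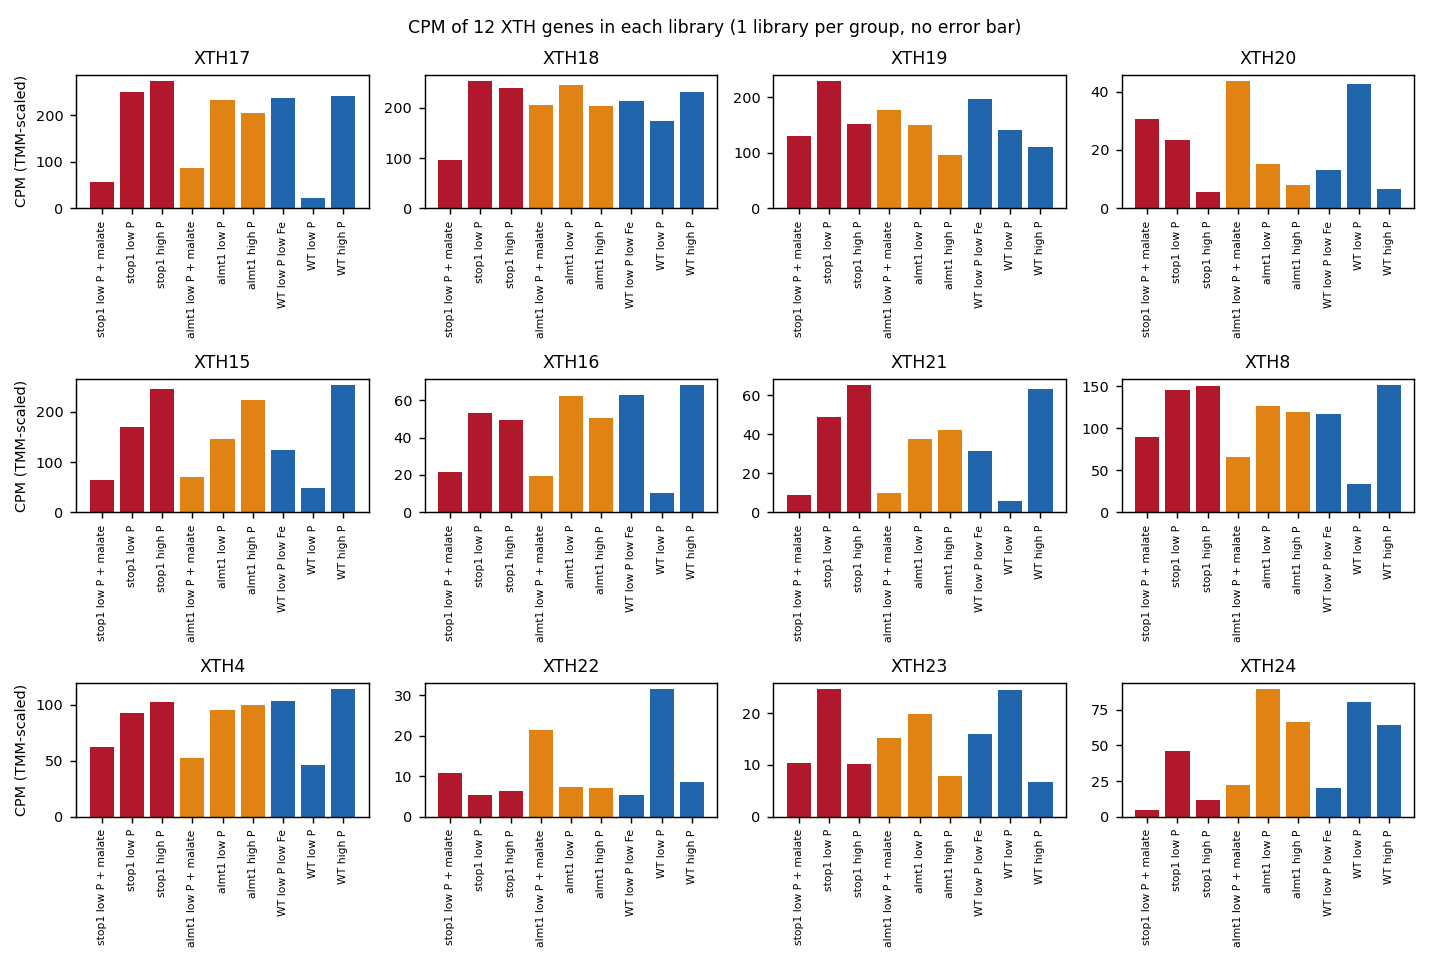
CPM (TMM-scaled) of 12 XTH genes in each of the 9 libraries, 1 bar per library and no error bars because no group has a second library; colours mark stop1, almt1 and WT. XTH17 drops to 21.6 CPM in WT on low phosphate while XTH18 is at 173, and XTH22 reaches 31.5 CPM there.

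XTH15 and XTH16, a pair known in shoots for their response to shade, both fell. XTH15 was at 63.9, 169.8 and 246 CPM in stop1 (malate, low and high phosphate), 69.5, 145 and 224 CPM in almt1 in the same order, and 124, 48.0 and 253 CPM in WT (low iron, low and high phosphate), with a log2 difference of -2.40 (SE 0.19, adjusted p = 0.00387) between low and high phosphate in WT. XTH16 was at 21.8, 53.3 and 49.4 CPM in stop1 (malate, low and high phosphate), 19.3, 62.1 and 50.2 CPM in almt1 in the same order, and 62.6, 10.4 and 68.1 CPM in WT (low iron, low and high phosphate), with a difference of -2.71 (SE 0.20, adjusted p = 0.00344). Both were lowest in WT on low phosphate and next lowest in the 2 malate libraries. XTH15 overlaps AT4G14120 on the other strand, and the libraries do not keep strand, so reads from the overlap cannot be assigned to 1 of the 2 genes.

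XTH21 was at 9.10, 48.8 and 65.3 CPM in stop1 (malate, low and high phosphate), 9.96, 37.6 and 42.5 CPM in almt1 in the same order, and 31.5, 6.08 and 63.4 CPM in WT (low iron, low and high phosphate). It was lowest in WT on low phosphate (-3.38, SE 0.30, adjusted p = 0.00450 against high phosphate, log2) and under 10 CPM also in both malate libraries. Of its 50-base windows, 7.82% occur elsewhere in the genome, the highest share of any member, so part of its reads could have been set aside as multiple.

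Among XTH1 to XTH11, the members with the highest counts were XTH4 and XTH8. XTH8 was at 89.8, 145 and 149.9 CPM in stop1 (malate, low and high phosphate), 65.4, 126 and 119.6 CPM in almt1 in the same order, and 117, 33.8 and 151 CPM in WT (low iron, low and high phosphate), and it fell in WT on low phosphate by a log2 difference of -2.16 (SE 0.17, adjusted p = 0.00387). XTH4, known for its part in wood formation in the stem, was at 61.8, 92.9 and 103 CPM in stop1 (malate, low and high phosphate), 52.1, 95.1 and 99.2 CPM in almt1 in the same order, and 103, 45.8 and 114 CPM in WT (low iron, low and high phosphate), with a difference of -1.31 (SE 0.17, adjusted p = 0.00881). The WT low-phosphate library was the lowest of the 9 for both genes. XTH2 had 0 counts in WT on low phosphate against 25 on high phosphate, which is at least 5.92-fold lower with 3 counts allowed in the low-phosphate library (adjusted p = 0.0283).

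XTH22, also called TCH4, is known for its rapid rise after touch, and XTH23 is its close relative. XTH22 was at 10.9, 5.42 and 6.45 CPM in stop1 (malate, low and high phosphate), 21.5, 7.39 and 7.03 CPM in almt1 in the same order, and 5.36, 31.5 and 8.61 CPM in WT (low iron, low and high phosphate), and it rose in WT on low phosphate by 1.87 (SE 0.31, adjusted p = 0.0160) on the log2 scale. XTH23 was at 10.3, 24.6 and 10.2 CPM in stop1 (malate, low and high phosphate), 15.2, 19.8 and 7.78 CPM in almt1 in the same order, and 16.0, 24.5 and 6.62 CPM in WT (low iron, low and high phosphate), and it rose there by 1.89 (SE 0.37, adjusted p = 0.0248). XTH22 was highest in WT on low phosphate, while XTH23 was equally high in stop1 on low phosphate. Among XTH27 to XTH33, 1 of 7 members passed, XTH33, a member known to sit at the plasma membrane. It was at 5.37, 9.05 and 6.29 CPM in stop1 (malate, low and high phosphate), 7.71, 9.53 and 7.72 CPM in almt1 in the same order, and 7.46, 2.40 and 7.28 CPM in WT (low iron, low and high phosphate) and fell in WT on low phosphate by a log2 difference of -1.60 (SE 0.28, adjusted p = 0.0170).

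Leaving out the stop1 or the almt1 high-phosphate library ended the calls of XTH2, XTH23 and XTH33 in WT and left 8 members called, and leaving out either malate library raised the number of members called to 17. The call of XTH2 was lost also without the low-phosphate library of either mutant and with DESeq2. XTH4, XTH8, XTH15, XTH16, XTH17, XTH20, XTH21 and XTH22 were called under all 11 alternatives. None of these left out the WT low- or high-phosphate library. Values of other lists also differed in the WT low-phosphate library, where 12% of all genes rose and 9.79% fell against high phosphate. All 5 touch and wound markers that passed the filter (LOX2 had no count in any library) rose in WT on low phosphate, with a sum of 567 CPM against 76.5 CPM on high phosphate. Most of the low-phosphate sum was TCH3, at 405 CPM against 16.5 CPM on high phosphate. Endodermis and xylem markers summed to 434 CPM on low and 863 CPM on high phosphate, with 2 of 9 called lower (CASP5 and XCP1), none called higher and none at 0. Root hair markers summed to 1015 CPM on low and 547 CPM on high phosphate, with 4 of 8 called higher and none at 0. Most of that rise lay in PRP3 (368 CPM on low against 98.7 CPM on high phosphate) and LRX1 (197 against 24.7 CPM). EXPA7 (123 against 141 CPM) and EXPA18 (135 against 176 CPM) were lower on low phosphate. Of the meristem division markers 1 of 9 was called higher and 3 lower, at a sum of 180.0 CPM on low and 215 CPM on high phosphate. Their part in the XTH values, and that of the large share of multiple alignments in this library, was not tested.

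In the mutants, few members were called between low and high phosphate, though 11 of the 29 had an unadjusted p under 0.05 by edgeR. The number called depended on which libraries were used, as given below. XTH13 and XTH23 rose on low against high phosphate and no member fell, beside 2.3% of all genes that rose and 3.11% that fell. XTH13, which lies next to its near-copy XTH12 on chromosome 5, was at 83.5, 76.6 and 38.7 CPM in stop1 (malate, low and high phosphate), 103, 80.5 and 47.1 CPM in almt1 in the same order, and 120.1, 55.5 and 46.3 CPM in WT (low iron, low and high phosphate), and in the mutants it rose by 0.88 (SE 0.11, adjusted p = 0.0149) on the log2 scale. XTH23 rose by 1.31 (SE 0.25, adjusted p = 0.0482). XTH17 was within 1.2-fold between low and high phosphate in each mutant, at log2 ratios of -0.13 (95% interval -0.18 to -0.08) in stop1 and 0.18 (95% interval 0.14 to 0.23) in almt1. The median log2 difference was 0.16 over the members and 0.01 over all genes.

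Both calls were lost without the high- or low-phosphate library of either mutant, where 0 to 2 members were called. Without either malate library the number of members called was 13, XTH13 and XTH23 among them, and without the 3 libraries given malate or low iron it was 11. With genotype as a block over those 6 libraries, 1 response to low against high phosphate was tested across the 3 genotypes together. XTH23 was the only member called, at 1.48 (SE 0.17, adjusted p = 0.0266) on the log2 scale, beside 1.69% of all genes that rose and 1.77% that fell. Its log2 ratio of low to high phosphate was 1.27 (95% interval 1.06 to 1.48) in stop1, 1.35 (95% interval 1.14 to 1.57) in almt1 and 1.89 (95% interval 1.64 to 2.13) in WT. The call of XTH23 over 3 genotypes was lost without the stop1 pair of libraries, where 1 gene of all was called. Without the WT pair 11 members were called, and DESeq2 called 6.

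**Figure D4:**
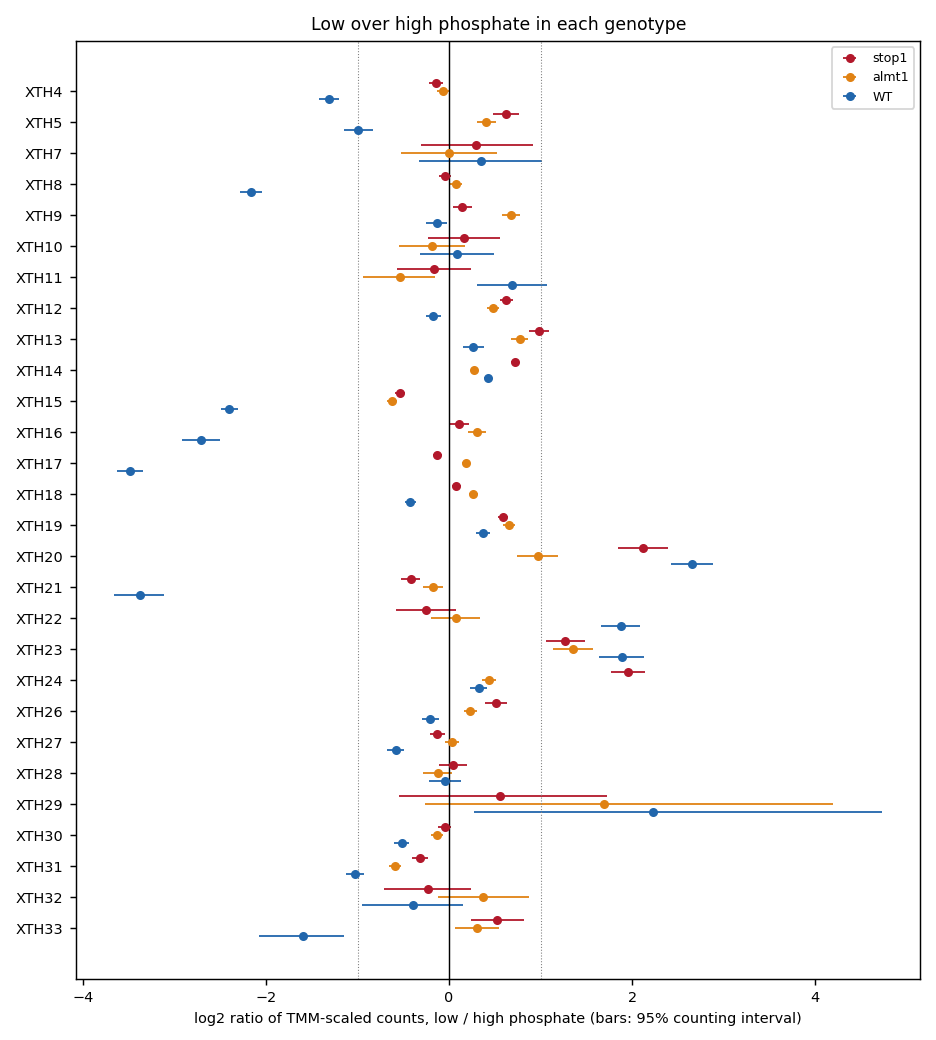
Log2 ratio of TMM-scaled counts on low over high phosphate in stop1, almt1 and WT, with 95% intervals that cover counting error only; dotted lines mark a 2-fold difference. The WT points of XTH17, XTH21, XTH16, XTH15, XTH8 and XTH4 lie left of the left dotted line while those of both mutants lie between the lines.

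The response to low phosphate was tested for a difference between genotypes, WT minus mutants. For 5 members it was lower in WT: XTH8, XTH15, XTH16, XTH17 and XTH21. No member had a higher response in WT. Of all genes, 0.688% had a higher and 0.561% a lower response in WT. The largest of these differences was that of XTH17, at -3.49 (SE 0.44, adjusted p = 0.0395) on the log2 scale, followed by XTH21 at -3.07 (SE 0.34, adjusted p = 0.0236) and XTH16 at -2.92 (SE 0.23, adjusted p = 0.0199). XTH8 differed by -2.18 (SE 0.21, adjusted p = 0.0199) and XTH15 by -1.82 (SE 0.22, adjusted p = 0.0286).

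By single libraries, low phosphate put 3 members at least 2-fold higher and 1 lower in stop1, beside 3.79% and 3.69% of all genes. In almt1 it put 1 member higher and 1 lower, beside 3.06% and 3.98%. In WT it put 4 higher and 9 lower, beside 11.7% and 8.54%. The higher members in WT included XTH29, at only 10 counts on low against 3 on high phosphate (95% interval of the log2 ratio 0.27 to 4.73). XTH20 and XTH23 were higher in both stop1 and WT, and XTH2 was the lower one in both mutants.

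For XTH15 the low-phosphate level was below the high-phosphate level in the mutants too, with log2 ratios of -0.53 (95% interval -0.59 to -0.48) in stop1 and -0.62 (95% interval -0.68 to -0.57) in almt1 against -2.40 (95% interval -2.50 to -2.30) in WT. XTH18 did not pass the test of the difference (-0.58, SE 0.59, adjusted p = 0.601), nor did XTH20 (1.09, SE 0.56, adjusted p = 0.312) or XTH22 (1.97, SE 0.38, adjusted p = 0.0703). All 5 calls were lost when any 1 of the 4 mutant libraries on high or low phosphate was left out, and then 0 of all genes were called. Without either malate library 16 members were called, these 5 among them.

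The mutants were also set against WT within each condition. The spread of these tests came from stop1 against almt1, so a gene that differed in only 1 mutant could hardly be called. ALMT1 on high phosphate, at 0.0395 CPM in stop1, 41.6 CPM in almt1 and 57.0 CPM in WT, was not called. XTH24, at 11.9 CPM in stop1, 66.2 CPM in almt1 and 64.3 CPM in WT, had a log2 difference of -0.71 (SE 1.22) there. On high phosphate no member differed between mutants and WT by edgeR, and 0% of all genes did; 1 member and 893 genes had an unadjusted p under 0.05, and DESeq2 also called 0. By single libraries on high phosphate, 1 member was at least 2-fold higher and 2 lower in stop1 than in WT, beside 1.15% and 1.92% of all genes, and no member was past 2-fold between almt1 and WT, beside 1.15% and 0.711%. On low phosphate 7 members were higher in the mutants, XTH4, XTH8, XTH15, XTH16, XTH17, XTH21 and XTH33, and XTH22 was lower. Of all genes, 2.12% were higher and 4.48% lower in the mutants. The median log2 difference was 0.42 over the members and -0.03 over all genes. By single libraries 8 members were higher and 1 lower in stop1 than in WT, beside 4.33% and 8.92% of all genes. In almt1 8 were higher and 3 lower than in WT, beside 3.97% and 9.2%.

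XTH17 stood at 251 CPM in stop1 and 233 CPM in almt1 on low phosphate, against 21.6 CPM in WT, a log2 difference of 3.49 (SE 0.34, adjusted p = 0.00543). The same difference was 2.83 (SE 0.34, adjusted p = 0.0100) for XTH21, 2.47 (SE 0.18, adjusted p = 0.00218) for XTH16 and 2.00 (SE 0.26, adjusted p = 0.0110) for XTH8. For XTH33 it was 1.95 (SE 0.31, adjusted p = 0.0194), for XTH15 1.72 (SE 0.17, adjusted p = 0.00548) and for XTH4 1.04 (SE 0.16, adjusted p = 0.0170). XTH22 stood at 5.42 CPM in stop1 and 7.39 CPM in almt1, against 31.5 CPM in WT (-2.30, SE 0.39, adjusted p = 0.0280). These values rest on the same WT low-phosphate library as the comparison with high phosphate. Without the low-phosphate library of stop1 or of almt1, 4 members were called, XTH15, XTH16, XTH17 and XTH21, and XTH22 was also lost without either high-phosphate library. Touch and wound markers summed to 180.3 CPM in stop1 and 152 CPM in almt1 on low phosphate against 567 CPM in WT. Most of the WT sum was TCH3, at 405 CPM against 56.6 CPM in stop1 and 51.6 CPM in almt1. ZAT12 alone went the other way, at 32.9 CPM in WT against 43.1 CPM in stop1 and 35.7 CPM in almt1. Endodermis and xylem markers summed to 883 CPM in stop1 and 709 CPM in almt1 against 434 CPM in WT. Of the meristem division markers 1 of 9 was called higher and 1 lower in the mutants, at sums of 215 CPM in stop1 and 221 CPM in almt1 against 180.0 CPM in WT, and no root hair marker was called. Their part was not tested.

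In WT on low phosphate, 11 members rose and 6 fell with low iron against low phosphate with iron, beside 12.5% of all genes that rose and 18.1% that fell. Of the 8 members that fell in WT on low against high phosphate, 7 were among the 11 that rose, and the other, XTH2, had 4 counts with low iron against 0 on low phosphate alone. Both comparisons use the WT low-phosphate library, so a low value there enters each of them. The remaining members that rose were XTH5, XTH12, XTH13 and XTH30. The share of members that fell was close to that of all genes. The median log2 difference was 0.38 over the members and -0.01 over all genes. By the 2 libraries alone, 9 members were at least 2-fold higher and 7 lower, beside 6.83% and 17.5% of all genes.

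XTH17 rose to 237 CPM with low iron, against 21.6 CPM on low phosphate alone, by 3.46 (SE 0.38, adjusted p = 0.00472) on the log2 scale. The low-iron level was close to the 241 CPM of WT on high phosphate. XTH16 rose by 2.59 (SE 0.20, adjusted p = 0.00157), XTH21 by 2.37 (SE 0.29, adjusted p = 0.00476) and XTH8 by 1.79 (SE 0.17, adjusted p = 0.00256). XTH21 at 31.5 CPM and XTH15 at 124 CPM remained below their levels on high phosphate, 63.4 and 253 CPM. XTH15 rose by 1.37 (SE 0.19, adjusted p = 0.00552), XTH4 by 1.17 (SE 0.17, adjusted p = 0.00646) and XTH33 by 1.63 (SE 0.28, adjusted p = 0.00972).

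Some members rose with low iron without having passed the test on low against high phosphate. XTH5 was at 49.9, 38.9 and 25.2 CPM in stop1 (malate, low and high phosphate), 46.1, 53.3 and 40.2 CPM in almt1 in the same order, and 68.1, 21.6 and 43.0 CPM in WT (low iron, low and high phosphate), with a log2 difference of 1.65 (SE 0.29, adjusted p = 0.0118) between low iron and low phosphate. XTH13 differed by 1.11 (SE 0.16, adjusted p = 0.00663). Its tandem neighbour XTH12, which shares 89.7% of its aligned coding bases, was at 126, 155 and 100.5 CPM in stop1 (malate, low and high phosphate), 156, 156 and 112 CPM in almt1 in the same order, and 183, 106 and 119 CPM in WT (low iron, low and high phosphate) and rose with low iron by 0.79 (SE 0.17, adjusted p = 0.0191). XTH5, XTH12 and XTH13 were thus at their highest of the 9 libraries with low iron. XTH30 was at 81.2, 116 and 119.8 CPM in stop1 (malate, low and high phosphate), 99.2, 116 and 127 CPM in almt1 in the same order, and 142, 90.0 and 129 CPM in WT (low iron, low and high phosphate) and rose with low iron by 0.65 (SE 0.17, adjusted p = 0.0322).

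Members that fell with low iron included the touch gene XTH22, at 5.36 CPM against 31.5 CPM on low phosphate alone (-2.56, SE 0.32, adjusted p = 0.00481, log2). XTH24, first described as the meristem gene MERI5, was at 4.70, 46.3 and 11.9 CPM in stop1 (malate, low and high phosphate), 22.5, 89.5 and 66.2 CPM in almt1 in the same order, and 19.8, 80.4 and 64.3 CPM in WT (low iron, low and high phosphate), and it fell with low iron by a log2 difference of -2.02 (SE 0.55, adjusted p = 0.0474). XTH20 fell by a difference of -1.70 (SE 0.44, adjusted p = 0.0431). The other members that fell were counted at low levels. XTH10 was at 3.78, 4.47 and 3.99 CPM in stop1 (malate, low and high phosphate), 3.76, 3.77 and 4.29 CPM in almt1 in the same order, and 1.48, 4.56 and 4.29 CPM in WT (low iron, low and high phosphate) and differed by -1.63 (SE 0.30, adjusted p = 0.0121) with low iron. XTH11 was at 4.52, 3.60 and 4.03 CPM in stop1 (malate, low and high phosphate), 3.29, 2.86 and 4.17 CPM in almt1 in the same order, and 2.51, 6.23 and 3.87 CPM in WT (low iron, low and high phosphate) and differed by -1.31 (SE 0.30, adjusted p = 0.0230). XTH7 was at 0.307, 1.99 and 1.62 CPM in stop1 (malate, low and high phosphate), 0.848, 1.96 and 1.96 CPM in almt1 in the same order, and 0.410, 1.86 and 1.46 CPM in WT (low iron, low and high phosphate) and differed by -2.17 (SE 0.61, adjusted p = 0.0410). XTH10 and XTH11 had their lowest level of the 9 libraries with low iron, and XTH7 had its lowest in stop1 with malate.

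Without the high-phosphate library of stop1 or of almt1, 11 members were called with low iron, and XTH7, XTH11, XTH12, XTH20, XTH24 and XTH30 were lost; without either malate library 21 were called and XTH24 was lost. XTH24 was also lost with RLE factors, with total gene counts and with no filter on low counts. Without the low-phosphate library of either mutant XTH7, XTH11 and XTH30 were lost, XTH7 and XTH11 were lost with DESeq2, and XTH20 was lost with no filter. Touch and wound markers summed to 127 CPM with low iron against 567 CPM on low phosphate alone. Of these, 2 of 5 were called lower and none higher. Most of the difference in the sum lay in TCH3, at 10.96 CPM with low iron against 405 CPM on low phosphate alone. Endodermis and xylem markers summed to 904 CPM with low iron against 434 CPM on low phosphate alone. Of the meristem division markers 2 of 9 were called higher and 1 lower, at a sum of 235 CPM with low iron against 180.0 CPM on low phosphate alone, and 2 of 8 root hair markers were called higher and none lower, at 1207 CPM with low iron against 1015 CPM on low phosphate alone. Of the root cap markers 1 of 3 was called higher, and no photosynthesis marker was called. Their part was not tested. The share of ambiguous reads was 2.55% to 2.65% in the low-iron and both malate libraries and 0.956% to 1.69% in the other 6. The share of reads without a feature was 0.521% to 0.614% in the low-iron and malate libraries and 0.915% to 4.24% in the other 6. Low iron or malate and this difference between libraries cannot be told apart.

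In the mutants on low phosphate, 13 members were lower and 1 was higher with added malate, beside 19.4% of all genes that fell and 17.2% that rose. The malate libraries also differed from those without malate in their shares of ambiguous reads and of reads without a feature, as given above. The members that fell included XTH15, XTH16, XTH17 and XTH21, and the one that rose was XTH22. The median log2 difference was -0.53 over the members, the same with XTH2 at the bound its floor allows, and -0.02 over all genes. By single libraries, 1 member was at least 2-fold higher and 11 lower with malate in stop1, beside 6.13% and 13.8% of all genes. In almt1 3 were higher and 7 lower, beside 4.33% and 7.17%. Scaling by total gene counts would move all log2 ratios of malate to low phosphate up by 0.18 in stop1 and by 0.12 in almt1.

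XTH17 fell to 57.3 CPM with malate against 251 CPM on low phosphate in stop1, and to 86.2 against 233 CPM in almt1, a log2 difference of -1.76 (SE 0.25, adjusted p = 0.00914). XTH21 differed by -2.16 (SE 0.19, adjusted p = 0.00542), XTH16 by -1.49 (SE 0.13, adjusted p = 0.00528) and XTH15 by -1.24 (SE 0.13, adjusted p = 0.00577). The levels of XTH15, XTH16 and XTH21 with malate stayed above the WT level on low phosphate in both mutants, and so did that of XTH17. XTH24 had the largest difference of members with counts in all libraries, at -2.67 (SE 0.41, adjusted p = 0.0115). It fell to 4.70 CPM with malate against 46.3 CPM in stop1 and to 22.5 against 89.5 CPM in almt1. XTH22 rose to 10.9 CPM with malate against 5.42 CPM in stop1 and to 21.5 against 7.39 CPM in almt1 (1.29, SE 0.22, adjusted p = 0.0107). Touch and wound markers summed to 191 CPM with malate against 180.3 CPM in stop1 and to 251 against 152 CPM in almt1, with 1 of 5 called higher and 1 called lower; their part was not tested.

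XTH14 was at 223, 562 and 341 CPM in stop1 (malate, low and high phosphate), 351, 494 and 408 CPM in almt1 in the same order, and 389.5, 494 and 368 CPM in WT (low iron, low and high phosphate), and it fell with malate by a log2 difference of -0.91 (SE 0.21, adjusted p = 0.0215). XTH8 fell by a difference of -0.82 (SE 0.12, adjusted p = 0.00790) and XTH4 by -0.73 (SE 0.12, adjusted p = 0.00962). XTH7 fell by a difference of -1.82 (SE 0.40, adjusted p = 0.0183). XTH2 had 0 counts with malate in both mutants, against 8 counts in stop1 and 7 in almt1 on low phosphate, which is at least 3.65-fold and at least 2.66-fold lower with 3 counts allowed in each malate library (adjusted p = 0.0178). Among the members called, the smallest differences were in XTH9, XTH26 and XTH27. XTH9, known from the shoot apex, was at 45.2, 54.2 and 48.9 CPM in stop1 (malate, low and high phosphate), 38.5, 69.3 and 43.5 CPM in almt1 in the same order, and 42.5, 51.4 and 56.4 CPM in WT (low iron, low and high phosphate), with a difference of -0.56 (SE 0.16, adjusted p = 0.0408). XTH27, known from tracheary elements in leaves, was at 58.0, 92.5 and 101 CPM in stop1 (malate, low and high phosphate), 76.6, 96.2 and 94.1 CPM in almt1 in the same order, and 75.3, 70.3 and 105 CPM in WT (low iron, low and high phosphate), with a difference of -0.49 (SE 0.15, adjusted p = 0.0409). XTH26, a root hair gene, was at 41.2, 54.6 and 38.3 CPM in stop1 (malate, low and high phosphate), 74.0, 103 and 87.6 CPM in almt1 in the same order, and 93.1, 71.7 and 82.7 CPM in WT (low iron, low and high phosphate), with a difference of -0.44 (SE 0.13, adjusted p = 0.0381).

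XTH26 was lost with DESeq2, and XTH9, XTH26 and XTH27 were lost with total gene counts. Without the stop1 low-phosphate library only XTH16 and XTH24 were called, 69 genes being called in all. Without the almt1 low-phosphate library 5 members were called (XTH14, XTH15, XTH16, XTH21 and XTH24), and without the high-phosphate library of either mutant 8 were called. Without the almt1 malate library 19 members were called and without the stop1 malate library 13, and XTH24 was lost in both settings. Endodermis and xylem markers summed to 346 CPM with malate against 883 CPM in stop1 and to 559.7 against 709 CPM in almt1. Of these, 3 of 9 were called lower, none was called higher and none was at 0. All were lower with malate in stop1. In almt1 CASP4 (43.1 against 28.3 CPM), IRX3 (36.5 against 31.6 CPM) and CASP2 (72.0 against 70.2 CPM) were higher with malate and the rest lower. Of the meristem division markers 3 of 9 were called higher with malate and none lower, at sums of 244 CPM with malate against 215 CPM on low phosphate in stop1 and 246 CPM with malate against 221 CPM on low phosphate in almt1. Of the root hair markers 2 of 8 were called higher and 1 lower, at sums of 706 CPM with malate against 722 CPM on low phosphate in stop1 and 896 CPM with malate against 742 CPM on low phosphate in almt1. Of the root cap markers 1 of 3 was called higher and none lower, and no photosynthesis marker was called. The part of these lists was not tested.

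**Figure D5:**
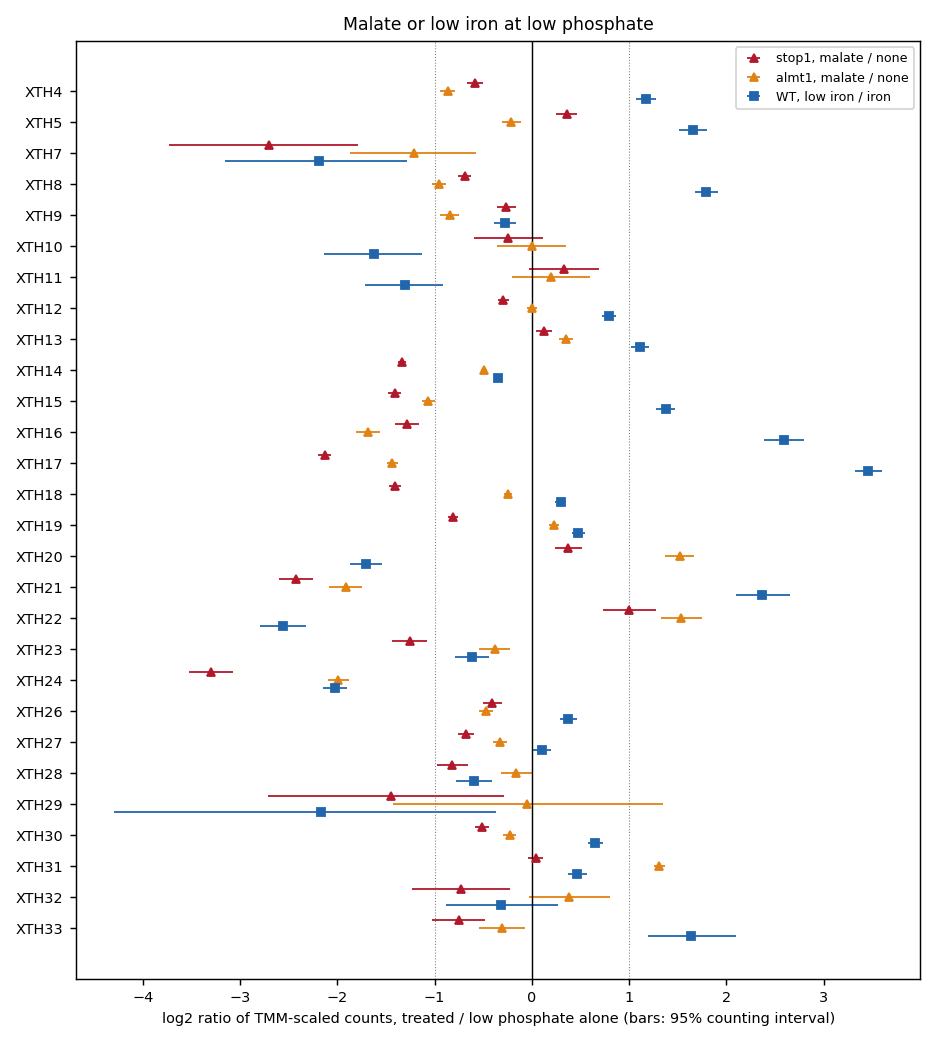
Log2 ratio of TMM-scaled counts with malate over low phosphate alone in stop1 and almt1, and with low iron over low phosphate alone in WT, with 95% intervals that cover counting error only; dotted lines mark a 2-fold difference. XTH17, XTH16, XTH21 and XTH15 lie left of the left dotted line with malate and right of the right one with low iron.

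The mutants differed from each other in a few members, and these comparisons rest on 1 library against 1, with no test. On high phosphate XTH24 was at 11.9 CPM in stop1, against 66.2 CPM in almt1 and 64.3 CPM in WT. The log2 ratio was -2.47 (95% interval -2.65 to -2.30) for stop1 over almt1 and -2.43 (95% interval -2.61 to -2.25) for stop1 over WT, while almt1 over WT was at 0.04 (95% interval -0.05 to 0.13). XTH24 was lower in stop1 than in almt1 also with malate, at a log2 ratio of -2.26 (95% interval -2.50 to -2.03), and at -0.95 (95% interval -1.05 to -0.86) on low phosphate it stayed just inside 2-fold. XTH26 on high phosphate was at 38.3 CPM in stop1, against 87.6 CPM in almt1 and 82.7 CPM in WT, a log2 ratio of -1.19 (95% interval -1.30 to -1.09) for stop1 over almt1. On high phosphate 2 members were lower and 1 was higher in stop1 than in almt1, beside 2.29% of all genes lower and 1.43% higher. The higher one was XTH29, at 12 counts in stop1 against 3 in almt1, a ratio of 5.08 with a 95% interval on the log2 scale of 0.46 to 4.81. On low phosphate XTH29 was again the one member past 2-fold, higher in stop1, and no member was lower, beside 2.06% of all genes higher and 1.7% lower.

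With malate, 5 members were at least 2-fold lower in stop1 than in almt1 and none was higher, beside 3.79% of all genes lower and 0.612% higher. They were XTH7, XTH18, XTH24, XTH31 and XTH32. XTH31, known mainly as a hydrolase and for its effect on how root walls bind aluminium, was at 77.8, 75.8 and 94.4 CPM in stop1 (malate, low and high phosphate), 229, 92.3 and 139 CPM in almt1 in the same order, and 80.1, 57.9 and 118 CPM in WT (low iron, low and high phosphate). The almt1 malate library was the highest of the 9 for XTH31, at a log2 ratio of 1.31 (95% interval 1.25 to 1.37) over almt1 on low phosphate, whereas in stop1 the ratio was 0.04 (95% interval -0.04 to 0.12). XTH18 had a ratio of -1.41 (95% interval -1.46 to -1.35) for malate in stop1 and -0.24 (95% interval -0.29 to -0.20) in almt1. XTH20 was 1.52 (95% interval 1.37 to 1.67) in almt1 and 0.38 (95% interval 0.24 to 0.51) in stop1 for malate over low phosphate.

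In the edgeR tests as reported, the members that passed none were XTH18, XTH19, XTH28, XTH29, XTH31 and XTH32, so 23 of the 29 passed at least 1. XTH28, XTH29 and XTH32 had levels of 14.8 to 26.2, 0.0933 to 0.699 and 1.58 to 3.26 CPM across the 9 libraries.

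The 250 bases before each annotated start were searched on both strands for short elements, as a description of these letters only. The phosphate-starvation element P1BS (GNATATNC) was in XTH2 and XTH19 of the 33 members and in 5.44% of 26711 promoters of that length. The brassinosteroid element CGTGTG or CGTGCG was in XTH2, XTH8, XTH23 and XTH25, and in 6.72% of all promoters. The G-box CACGTG was in none of the 33 members and in 6.58% of all. The auxin element TGTCTC was in XTH3 and XTH6, neither of which was expressed above 1 count, and in 10.9% of all.

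Genes that make or trim xyloglucan were taken as 15 synthesis and 5 trimming genes. In WT on low against high phosphate 3 of the 15 synthesis genes rose and 2 fell, beside 12% of all genes that rose and 9.79% that fell. The risers were CSLC4, CSLC6 and CSLC12, glucan synthases of the xyloglucan backbone, at 0.87, 0.57 and 0.63 on the log2 scale. The genes that fell were AXY4, which acetylates xyloglucan, and XUT1, which adds galacturonic acid to it in root hairs, by log2 differences of -1.16 (SE 0.16, adjusted p = 0.0102) and -0.97 (SE 0.15, adjusted p = 0.0128). Of the trimming genes BGAL10, a galactosidase of xyloglucan, fell (-1.14) and the gene AT5G04885 rose (0.72). The sum of the synthesis list was 753 CPM on low and 733 CPM on high phosphate in WT, a smaller difference than that of the XTH sum.

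With low iron 11 of the 15 synthesis genes and 3 of the 5 trimming genes rose in WT and none fell, beside 12.5% of all genes that rose and 18.1% that fell. CSLC12 differed by 1.24 (SE 0.15, adjusted p = 0.00414) and XUT1 by 1.19 (SE 0.15, adjusted p = 0.00462) on the log2 scale. AXY4 was at 25.6, 43.9, 44.8 CPM in stop1 (malate, low and high phosphate), at 26.3, 39.8, 44.0 CPM in almt1 in that order, and at 37.4, 20.9, 47.0 CPM in WT (low iron, low and high phosphate). It was lowest in WT on low phosphate and next lowest in both malate libraries, as were XTH15 and XTH16. In the mutants with malate CSLC4 and CSLC12 were higher, and AXY4 (-0.69, SE 0.11, adjusted p = 0.00914) and XUT1 (-0.58, SE 0.10, adjusted p = 0.0114) were lower. Of the 5 trimming genes 3 were higher with malate and none lower, beside 17.2% of all genes that rose and 19.4% that fell. On low phosphate AXY4 (1.00, SE 0.14, adjusted p = 0.0132) and XUT1 (0.95, SE 0.16, adjusted p = 0.0209) were higher in the mutants than in WT and AT5G04885 was lower (-0.78, SE 0.13, adjusted p = 0.0243). No synthesis or trimming gene passed the test of the difference in response between WT and mutants.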

How the data were processed

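RNA of root tips was made into TruSeq libraries without strand, per the labels' protocols. The authors deposited raw counts by locus for each library, whose 5 summary lines were left out here (6.95% to 50.1% of each file's total). The submitters' processing notes name TopHat2, HTSeq and the TAIR10 build, with versions not given in the sources used here. Coordinates, lengths and sequences are from the RefSeq TAIR10.1 assembly, in which all 33 members matched by locus.

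Counts were tested with edgeR 4.0.16 in R 4.3.3 with limma 3.58.1 (TMM, filterByExpr at 10 counts and 15 in total, robust quasi-likelihood). The alternatives were DESeq2 1.42.0, RLE factors, total gene counts, no filter on low counts, fewer libraries and libraries left out. In the fits over 9 libraries each stop1 and almt1 library was left out in turn, but no WT library was. In the fit with genotype as a block the pair of each genotype was left out. Comparisons used cells of genotype class by treatment over 9 libraries with a stop1 against almt1 term (2 residual degrees of freedom), without that term for mutants against WT (3), or 6 libraries with genotype as a block (2). CPM were computed from TMM-scaled library sizes. Shared sequence was counted as 50-base windows found elsewhere in the genome. No 2 libraries agreed within sampling noise (lowest chi-square per degree of freedom 23.7). The members and lists were chosen with earlier results of these data known. Members called in at least 1 fit, or with the highest level per length, are given in every library, except XTH2, and the rest by range or count. Not all called members of the xyloglucan and marker lists are named, and their calls are not given for every comparison. XTH18, XTH19 and XTH31 were described after their values were seen.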

Additional observations from a re-analysis of the deposited data

Results flagged for a closer look

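The response to low phosphate differed between WT and the mutants for 5 members by the test of that difference itself (edgeR's quasi-likelihood test, WT minus mutants, adjusted over all genes). XTH17 had the largest difference, -3.49 on the log2 scale (adjusted p = 0.0395), with log2 ratios of low to high phosphate of -0.13 in stop1 and 0.18 in almt1 against -3.48 in WT. XTH21 differed by -3.07 (adjusted p = 0.0236), with ratios of -0.42 in stop1 and -0.18 in almt1 against -3.38 in WT. XTH16 differed by -2.92 (adjusted p = 0.0199), with ratios of 0.11 in stop1 and 0.31 in almt1 against -2.71 in WT. XTH8 differed by -2.18 (adjusted p = 0.0199), with ratios of -0.05 in stop1 and 0.08 in almt1 against -2.16 in WT. XTH15 differed by -1.82 (adjusted p = 0.0286), with ratios of -0.53 in stop1 and -0.62 in almt1 against -2.40 in WT. In each case the WT ratio rests on 1 library at each phosphate level. These 5 calls were kept with DESeq2, RLE factors, total gene counts, no filter and only 6 libraries, and were lost when any 1 of the 4 mutant libraries on high or low phosphate was left out.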

How the results depend on the processing

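Of 603 settings recomputed for the 58 calls of single members, 487 kept the direction and the call, 116 kept the direction and lost the call (105 of them with a library or pair of libraries left out) and 0 turned the direction. The number of members called for low against high phosphate was 1 over 3 genotypes and 6 with DESeq2, while in the mutants it was 2, and 6 with DESeq2, 4 with RLE factors, with total gene counts or with no filter, and 11 with only 6 libraries. For the difference in response it was 5, and 9 with DESeq2, 8 with RLE factors, with total gene counts or with no filter, and 12 with only 6 libraries. Ratios of single libraries at least 2-fold apart numbered 89 over 13 pairs, and 56 at 3-fold. With libraries left out, members called ranged from 0 to 11 over 3 genotypes, 0 to 13 in the mutants, 8 to 17 in WT, 0 to 16 for the difference, 11 to 21 with low iron, 2 to 19 with malate and 4 to 8 for mutants against WT on low phosphate, and stayed at 0 on high phosphate.

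Counts over all genes moved as well. They were 725 over 3 genotypes (1982 with DESeq2, 1 to 4629 with a pair left out), 1148 in the mutants (1748 with total gene counts, 4631 with only 6 libraries, 0 to 5298 with a library left out), 4631 in WT (8581 with only 6 libraries, 1434 to 9085) and 265 for the difference (959 with DESeq2, 514 with RLE factors, 894 with total gene counts, 548 with no filter, 3764 with only 6 libraries, 0 to 4641). They were 6500 with low iron (3337 to 10168), 7763 with malate (69 to 10206) and 1401 for mutants against WT on low phosphate (2264 with DESeq2, 130 to 1476). With total gene counts the split of calls for the difference was 596 higher and 298 lower, against 146 and 119, and in the mutants on low against high phosphate 616 higher and 1132 lower, against 488 and 660. The cause was not tested. The labels give no replicate numbers, so no block by replicate number was fitted; low against high phosphate over 3 genotypes was paired by genotype, as the block of that fit. Depth limits XTH2, XTH7, XTH10, XTH11, XTH29 and XTH32, which had few counts.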
